A study of Mus musculus with 12 samples.

Results

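Fos, Fosb, Fosl1, Fosl2, Jun, Junb, Jund, Egr1, Ier3 and Myc are immediate early and growth-response genes, and they were followed here in mammary tumors and benign mammary tissue. They were chosen by name, as the members of the Fos and Jun families together with Egr1, Ier3 and Myc, and all 10 were listed among the 16411 genes of the count table. RNA was sequenced from 6 tumors and 6 benign samples. All donors were female mice of the MMTV-Neu-NDL-YD5 line, heterozygous for the transgene on an FVB background, and none was treated. The transgene, an activated form of the rat Neu receptor (HER2), is driven by the mouse mammary tumor virus promoter, which is active in mammary epithelium, and both groups carried it. The benign samples were pieces of mammary gland in which no tumor was seen, and they came from other mice than the sequenced tumors. Wild-type mammary tissue was not analysed here. All samples were bulk tissue, so fewer cells of a type and less RNA per cell cannot be told apart.

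The Fos and Jun proteins pair with each other to form AP-1, a dimeric transcription factor that binds short palindromic sites. Jun proteins can also pair among themselves, whereas Fos proteins need a Jun partner. Fos, Fosb, Jun, Junb and Egr1 are switched on within minutes of growth factor receptor activation, and their transcripts decay quickly. Their levels in dissected tissue are also known to respond to handling. For Fos and Egr1, a main route is ERK acting on ternary complex factors and serum response factor. Fosl1 and Fosl2 encode Fra-1 and Fra-2, which accumulate later and lack the strong activation domain of Fos. Egr1 is a zinc finger factor, Ier3 (also called IEX-1) is an ERK-responsive regulator of survival, and Myc pairs with Max to drive growth and ribosome production.

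On GRCm38 (GENCODE M21), Fos lies at chr12:85473890-85477273, Fosb at chr7:19302696-19310051, Fosl1 at chr19:5447547-5455946 and Fosl2 at chr5:32135801-32157842, each with 4 exons in its longest coding transcript. Jun (chr4:95049034-95052222), Junb (chr8:84974484-84978718) and Jund (chr8:70698949-70700616) have 1 exon each. Ier3 (chr17:35821684-35822923) has 2 exons and Myc (chr15:61985391-61990374) has 3.

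The bases just upstream of the RefSeq starts are shown for the 4 members that passed the test between tumors and benign tissue (Fos, Fosb, Junb and Ier3), so that their promoters can be set side by side. A 250-base window was found for 7 of the 10 members. The sequences are from RefSeq on GRCm38.p6, at chr12:85473640-85473889 on the plus strand for Fos, chr7:19310046-19310295 on the minus strand for Fosb, chr8:84978749-84978998 on the minus strand for Junb and chr17:35821463-35821712 on the plus strand for Ier3. Each is written 5′ to 3′ along the gene's strand, and capitals mark the motifs that were found.
Fos: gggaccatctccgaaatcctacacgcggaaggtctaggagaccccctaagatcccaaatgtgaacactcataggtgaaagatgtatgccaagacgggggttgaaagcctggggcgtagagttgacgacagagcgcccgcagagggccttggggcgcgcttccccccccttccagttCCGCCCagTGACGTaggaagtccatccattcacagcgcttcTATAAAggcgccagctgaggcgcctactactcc
Fosb: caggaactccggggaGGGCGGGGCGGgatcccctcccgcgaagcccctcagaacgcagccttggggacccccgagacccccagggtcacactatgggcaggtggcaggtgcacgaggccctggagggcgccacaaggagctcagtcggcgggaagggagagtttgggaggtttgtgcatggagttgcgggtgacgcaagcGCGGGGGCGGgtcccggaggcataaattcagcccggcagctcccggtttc
Junb: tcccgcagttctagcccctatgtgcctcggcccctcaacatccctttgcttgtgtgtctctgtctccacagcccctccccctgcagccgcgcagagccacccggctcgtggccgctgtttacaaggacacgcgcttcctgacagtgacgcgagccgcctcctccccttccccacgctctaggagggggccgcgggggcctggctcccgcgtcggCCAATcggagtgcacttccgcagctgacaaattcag
Ier3: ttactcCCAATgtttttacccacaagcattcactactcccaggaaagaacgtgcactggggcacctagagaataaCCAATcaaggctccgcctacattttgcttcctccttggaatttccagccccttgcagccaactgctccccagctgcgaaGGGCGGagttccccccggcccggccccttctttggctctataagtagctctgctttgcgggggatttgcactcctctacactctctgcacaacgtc
Motifs were searched by their letters on both strands. The Fos window held a GC box (GGGCGG or its complement) 74 bases, the short cyclic AMP response motif TGACGT 66 bases and a TATA box (TATAAA) 33 bases before the start. The Fosb window held GC boxes 235, 230 and 46 bases before the start, the last of them overlapping an Egr site (GCGNGGGCG) that began 50 bases before it. Junb had a CCAAT box 36 bases before its start, and Ier3 had CCAAT boxes 244 and 175 bases and a GC box 96 bases before its start. Of 32851 RefSeq windows that also take in the bases just after the start, 35.7% held a GC box, 37.4% a CCAAT box, 13.6% this TATA box, 7.51% the TGACGT motif and 5.55% an Egr site. The AP-1 site TGACTCA, held by 5.2% of all windows, was not among the letters of these 4 stretches.

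The libraries held 5240853 to 8170687 counts in benign tissue and 6111393 to 8588567 counts in tumors. Levels are given as CPM, the counts scaled to a common library size with TMM factors. Erbb2, the gene for HER2, ran from 44.8 to 73.7 CPM in benign tissue and from 1989 to 16634 CPM in tumors, in the direction the labels give. Tissue markers differed widely between the groups. Summed over each marker list, luminal epithelium ran from 884 to 2402 CPM in benign tissue and from 2617 to 4340 CPM in tumors. Of its 7 genes, 6 were higher in tumors and 1 was lower. Fibroblast markers ran from 3281 to 7423 CPM in benign tissue and from 331 to 716 CPM in tumors, with 6 of 6 lower. Basal epithelial markers went the other way from luminal ones, from 533 to 1270 CPM in benign tissue against 27.8 to 103 CPM in tumors, with 6 of 6 lower. Adipocyte markers (7879 to 17934 CPM against 26.5 to 113 CPM) and endothelial markers (530 to 997 CPM against 78.6 to 98.1 CPM) were also lower, with all 6 and all 5 genes called. No gene of these 5 lists was at 0 in every tumor. Skeletal muscle markers reached 84915 CPM in benign sample 6 and were also high in benign samples 3 and 4, and B cell markers reached 597 CPM in benign sample 1. The part of these differences in the results below was not tested.

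Of the 10 genes, 9 had enough counts to be tested, and 4 differed between tumors and benign tissue at an adjusted p-value under 0.1 (edgeR quasi-likelihood test, 6 against 6 samples). Ier3 and Junb were higher in tumors, Fos and Fosb were lower, and the other 5 (Fosl2, Jun, Jund, Egr1 and Myc) were not called. Among all 13191 genes tested, 63.0% were called in either direction, 28.2% higher and 34.8% lower, so a share of 4 in 9 is not above the background. Ier3 was also the 1 member whose groups did not overlap with tumors above, a pattern seen in 14.7% of all genes tested. No member had all tumors below all benign samples, which 21.2% of all genes did. The median log2 fold change of the 9 members was -0.045, beside -0.062 over all genes tested.

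**Figure D1:**
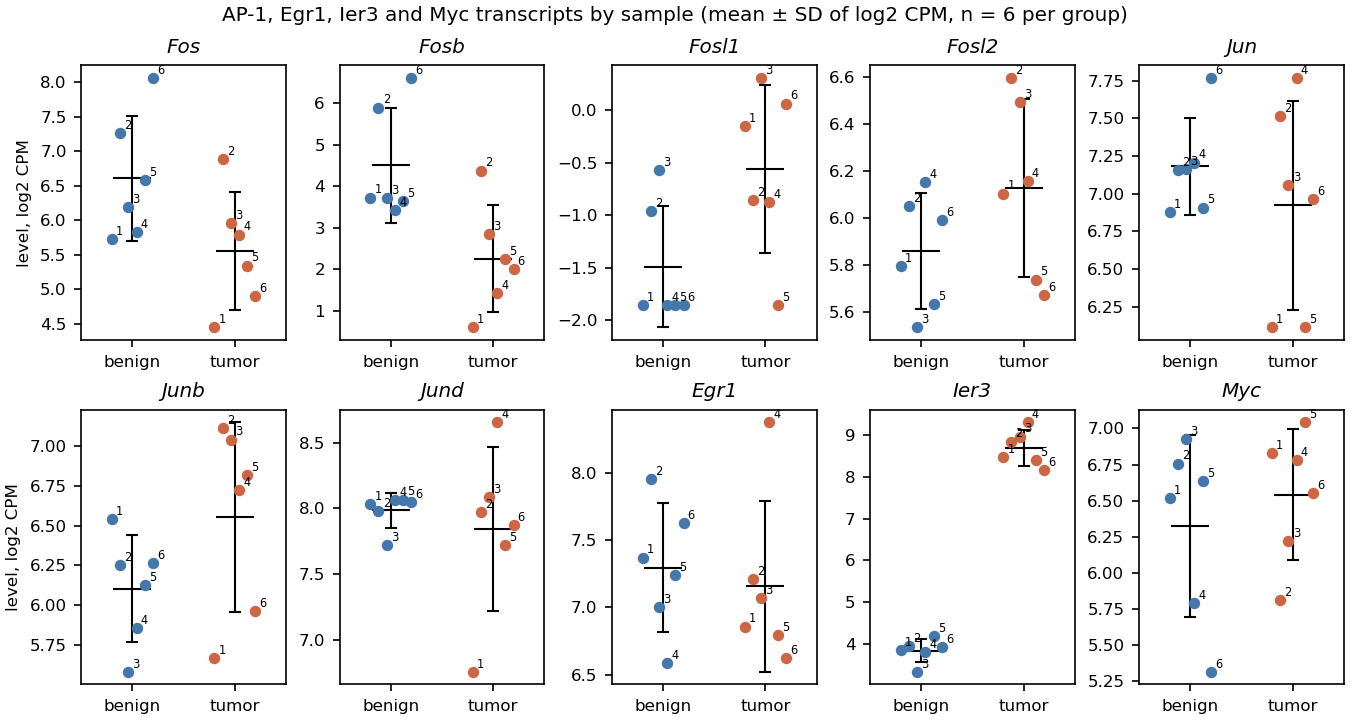
Level of each of the 10 genes (y axis, log2 CPM with 2 added counts) in 6 benign samples (blue) and 6 tumors (red), each point numbered by its sample, with the mean and SD of each group in black. The y axes differ between panels and do not start at 0. The groups are apart for Ier3, whereas they overlap for the other 9 genes.

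In the Fos family, Fos and Fosb were lower in tumors and Fosl2 was not called. Fos, the founding member, had levels of 52.8, 153.9, 72.7, 56.3, 95.9 and 268.2 CPM in benign samples 1 to 6 and of 21.5, 118.4, 61.7, 55.1, 40.3 and 29.6 CPM in tumors 1 to 6. Benign samples 2 and 6 were the highest of their group. Tumors 2, 3 and 4 lay within the benign range, and 3 tumors lay below every benign sample. The mean fell from 117 ± 83.0 CPM to 54.4 ± 34.8 CPM (SD, n = 6 per group), a log2 fold change of -1.10 (SE 0.47, edgeR adjusted p = 0.0643). An exact two-sided permutation test of log2 CPM gave p = 0.0693. The call rested on single libraries. When each sample was dropped in turn, Fos was called in 5 of 12 fits. Without benign sample 6 the log2 fold change was -0.67 (edgeR adjusted p = 0.197), and without benign sample 2 it was -0.94 (edgeR adjusted p = 0.133). It was also not called without tumors 1, 3, 4, 5 or 6, at edgeR adjusted p-values from 0.102 to 0.144.

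Fosb, the close relative of Fos, showed the larger fall. Its levels were 13.0, 59.1, 12.8, 10.5, 12.2 and 97.5 CPM in benign samples 1 to 6, and 1.25, 20.5, 6.98, 2.43, 4.48 and 3.73 CPM in tumors 1 to 6. Tumor 2 was the sole tumor inside the benign range, and benign samples 2 and 6 stood far above the other benign samples. The mean fell from 34.2 ± 36.3 CPM to 6.56 ± 7.10 CPM (SD, n = 6 per group). The log2 fold change was -2.38 (SE 0.76, edgeR adjusted p = 0.0169), 5.198-fold lower in tumors, and the exact permutation p was 0.0173. Fosb was called in all 12 fits that left out 1 sample, with log2 fold changes from -3.12 (without tumor 2) to -1.72 (without benign sample 6, edgeR adjusted p = 0.0521). With benign samples 3, 4 and 6 left out, the libraries rich in muscle transcripts, it was -2.09 (edgeR adjusted p = 0.0501).

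Neither Fra gene was called lower. Fosl2, which encodes Fra-2, had levels from 46.0 to 70.9 CPM in benign tissue (median 59.3) and from 50.7 to 96.5 CPM in tumors (median 69.7). Tumors 2 and 3 were the highest, and the groups overlapped. The means were 58.5 ± 9.84 and 71.6 ± 18.7 CPM (SD, n = 6 per group), with a log2 fold change of 0.29 (SE 0.18, edgeR adjusted p = 0.174). Fosl2 passed the threshold in 3 of 12 fits that left out 1 sample (without benign sample 2 and without tumors 5 or 6), for example at 0.44 without tumor 6 (edgeR adjusted p = 0.0408). It also passed at 0.39 when libraries were scaled by total counts (edgeR adjusted p = 0.0615) and at 0.38 when every gene with at least 1 count was fitted (edgeR adjusted p = 0.0924). Fosl1, which encodes Fra-1, was near the detection limit. Its counts were 0, 2, 3, 0, 0 and 0 in benign samples 1 to 6, at or under the floor of 3 counts, and 4, 2, 8, 2, 0 and 7 in tumors 1 to 6. It did not pass the filter of the edgeR test, and the exact permutation p was 0.0584. When every gene with at least 1 count was fitted, Fosl1 was called higher in tumors (edgeR adjusted p = 0.088), so its call depends on the filter. In the annotation Fosl1 overlaps Ccdc85b, a protein-coding gene on the opposite strand.

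Among the Jun genes, Junb rose while Jun and Jund were not called. Junb, a Jun protein that is often a weaker activator than Jun, had levels of 93.0, 75.9, 47.6, 57.7, 69.7 and 76.7 CPM in benign samples 1 to 6 and of 50.6, 138.5, 131.4, 105.4, 112.4 and 62.0 CPM in tumors 1 to 6. Tumors 2, 3, 4 and 5 lay above every benign sample, and tumors 1 and 6 lay within the benign range. The means were 70.1 ± 15.9 and 100.1 ± 36.2 CPM (SD, n = 6 per group), a log2 fold change of 0.51 (SE 0.25, edgeR adjusted p = 0.0951). The exact permutation test gave p = 0.143. Junb was called in 5 of 12 fits that left out 1 sample, with edgeR adjusted p-values from 0.0144 (without tumor 1, log2 fold change 0.71) to 0.18 (without benign sample 3, log2 fold change 0.42). It was not called without benign samples 3, 4, 5 or 6 or tumors 2, 3 or 5, nor with benign samples 3, 4 and 6 left out together (0.37, edgeR adjusted p = 0.343). Junb overlaps Prdx2 on the opposite strand in the annotation. The library kit was directional, but the strand setting of the counting is not given in the sources used here.

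Jun, a main partner of Fos, ran from 117 to 218 CPM in benign tissue (median 143) and from 69.0 to 218 CPM in tumors (median 129). Tumors 1 and 5 were lower than any benign sample, whereas tumor 4 lay at the level of benign sample 6, the highest of its group. The log2 fold change was -0.16 (SE 0.28, edgeR adjusted p = 0.654). Jund, the family member expressed most evenly across tissues, ran from 211 to 268 CPM in benign tissue (median 263) and from 108 to 403 CPM in tumors (median 242). Its log2 fold change was -0.045 (SE 0.23, edgeR adjusted p = 0.882), but tumor 1 lay far below and tumor 4 far above the benign range. The coefficient of variation of Jund was 8.603% in benign tissue and 38.9% in tumors, values that were not tested against each other. Jun overlaps the antisense gene Junos and Jund overlaps the antisense gene Gm11175.

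**Figure D2:**
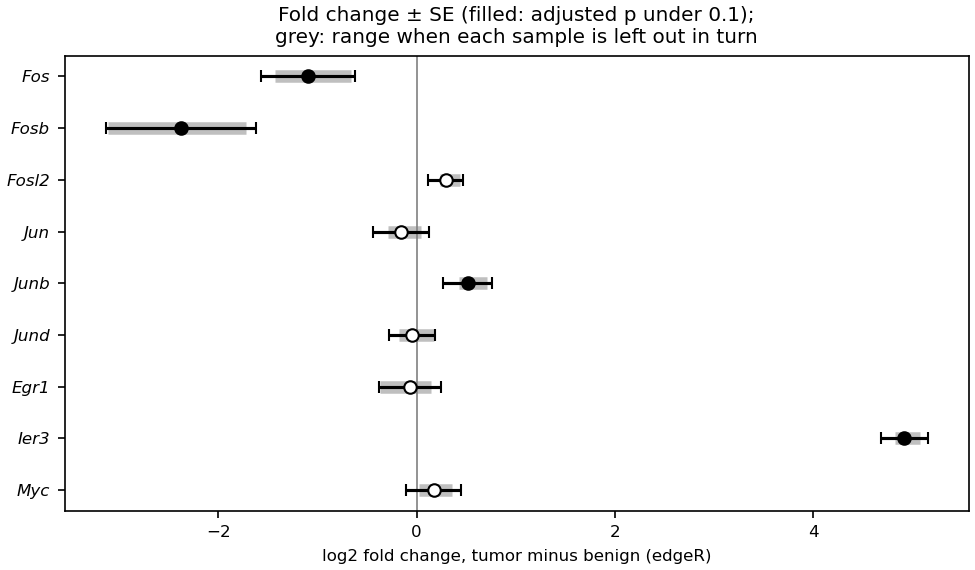
Log2 fold change between tumors and benign tissue (x axis, tumor minus benign, edgeR, 6 against 6 samples) for the 9 tested genes. Points with bars are the estimate and its SE, filled for an adjusted p under 0.1, and grey bands span the fits that left out 1 sample each. The Ier3 band runs from 4.83 to 5.08, and the bands of Jun, Jund and Egr1 cross 0.

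Ier3 had the largest change of the 10 genes. Its levels were 14.1, 15.04, 9.76, 13.5, 17.98 and 14.7 CPM in benign samples 1 to 6 and 353.5, 460.6, 500.6, 638.2, 337.5 and 286.6 CPM in tumors 1 to 6. Every tumor lay above every benign sample, with tumor 4 the highest. The mean rose from 14.2 ± 2.66 CPM to 429 ± 129.8 CPM (SD, n = 6 per group), a log2 fold change of 4.92 (SE 0.24, edgeR adjusted p = 5.67e-09) or 30.2-fold. The exact permutation p was 0.00216, the smallest that 6 against 6 samples can give. Of the 13191 genes tested, 65 had a larger log2 fold change. Ier3 was called in all 12 fits that left out 1 sample, and at 4.81 with benign samples 3, 4 and 6 left out (edgeR adjusted p = 2.12e-06). Ier3 was picked out by the study on these same samples, so its test is not independent evidence of its direction.

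Egr1, which shares the ERK and serum response factor input of Fos, did not pass the test. It ran from 95.7 to 247 CPM in benign tissue (median 158) and from 98.5 to 332 CPM in tumors (median 125). Tumor 4 was the highest of all 12 samples, and the other 5 tumors lay within the benign range. The log2 fold change was -0.068 (SE 0.31, edgeR adjusted p = 0.866), and without tumor 4 it was -0.37 (edgeR adjusted p = 0.178). Myc ran from 39.6 to 121 CPM in benign tissue (median 95.3) and from 56.0 to 132 CPM in tumors (median 102), with benign sample 6 the lowest and tumor 5 the highest. Its log2 fold change was 0.17 (SE 0.27, edgeR adjusted p = 0.622).

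Levels were compared between genes per kilobase of the longest coding transcript in GENCODE M21, which may not be the annotation used for counting. In benign tissue the order of mean CPM per kilobase was Jund (152), Fos (55.3), Jun (46.4), Junb (38.8), Myc (36.6), Egr1 (36.6), Ier3 (12.5), Fosb (9.04), Fosl2 (8.95) and Fosl1 (0.057). The sample ranges of neighbours in this order overlapped except between Egr1 and Ier3 and between Fosl2 and Fosl1. In tumors the order was Ier3 (380), Jund (148), Junb (55.3), Jun (41.6), Myc (41.3), Egr1 (34.9), Fos (25.8), Fosl2 (10.96), Fosb (1.73) and Fosl1 (0.26). There the ranges did not overlap between Ier3 and Jund or between Fosl2 and Fosb. Ier3 thus moved from the seventh place to the first, and Fos from the second to the seventh.

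Where both genes have many counts, their ratio within a sample depends little on scaling between samples. All 6 pairs of Fos genes and 3 pairs of Jun genes were compared by exact two-sided permutation tests, with p-values adjusted over the 9 pairs, and 6 passed 0.05. The pairs share genes, so they are not separate results, and no such count was made over other gene pairs. The log2 ratio of Fosb to Fosl2 was -1.36 ± 1.29 in benign tissue and -3.87 ± 1.13 in tumors (SD, n = 6 per group, exact p = 0.00433, adjusted p = 0.0195). In this ratio 5 tumors lay below every benign sample. The Fos to Fosl2 ratio went from 0.75 to -0.57 (exact p = 0.013, adjusted p = 0.0292), so the means passed from more Fos than Fosl2 counts to fewer. Per kilobase of transcript, mean Fos stayed above mean Fosl2 in tumors (25.8 against 10.96 CPM). The Fos to Fosb ratio rose from 2.11 to 3.30 (exact p = 0.00866, adjusted p = 0.026), that is, Fosb fell further than Fos. Leaving out 1 sample kept the Fosb to Fosl2 ratio past the threshold in every case. The Fos to Fosb ratio missed it without benign samples 2 or 6 or tumor 1 (exact test, adjusted p = 0.0519 each), and the Fos to Fosl2 ratio missed it without benign samples 2, 5 or 6 or tumor 1 (exact test, adjusted p = 0.0584 each).

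Within the Jun family, the log2 ratio of Junb to Jund rose from -1.88 ± 0.27 to -1.29 ± 0.50 (SD, n = 6 per group, exact p = 0.0325, adjusted p = 0.0487). Tumors 1, 2, 3 and 5 lay above every benign sample and tumors 4 and 6 lay within the benign range. This ratio passed the threshold only without benign sample 1 or tumors 4 or 6 among the comparisons that left out 1 sample, and in the other cases the exact test gave adjusted p-values from 0.0649 to 0.0974. The Jun to Junb ratio went from 1.08 to 0.37 (exact p = 0.0584, adjusted p = 0.0751, and 0.039 without benign sample 1), and the Jun to Jund ratio differed by -0.12 (exact p = 0.604). The other passing pairs set Fos (difference -1.99) and Fosb (difference -3.18) against Fosl1, whose counts of 0 to 8 make these values depend on the 2 added counts. With 0.5 added counts the differences were -2.82 and -4.07. Samples with 0 Fosl1 counts all had the same Fosl1 log2 CPM (-1.86). Their ratios to Fosl1 therefore follow the scaled level of Fos or Fosb and do depend on scaling between samples.

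**Figure D3:**
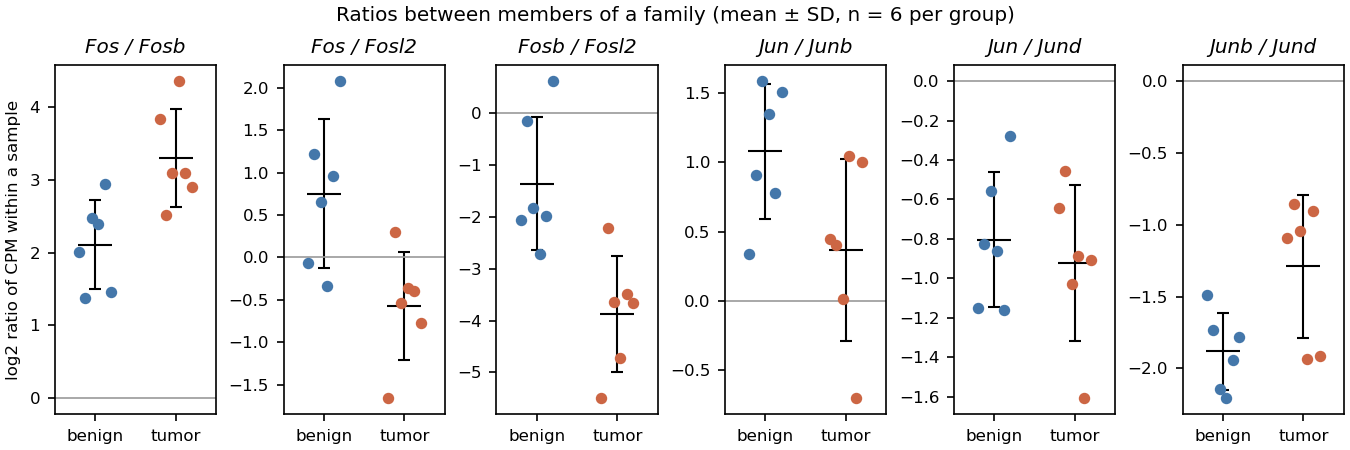
Log2 ratio of CPM between members of the Fos family (left 3 panels) and the Jun family (right 3 panels) within each of 6 benign samples (blue) and 6 tumors (red), with mean and SD in black. The y axes differ between panels. Tumors sit lower for Fos / Fosl2 (mean -0.57) and Fosb / Fosl2 (mean -3.87) and higher for Fos / Fosb (mean 3.30) and Junb / Jund (mean -1.29).

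Several members were highest or lowest in the same sample of a group. Tumor 1 was the lowest of the tumors for 5 of the 9 tested members and tumor 6 for 3, while tumors 2 and 4 were each the highest for 4. Tumor 2 was, however, the lowest tumor for Myc. Benign sample 6 was the highest benign sample for Fos, Fosb and Jun and the lowest for Myc. Benign sample 3 was the lowest for 4 of the 9 members, and every benign sample was the highest for some member. The biological coefficient of variation that edgeR estimated was 0.836 for Fosb and 0.556 for Fos, against 0.351 in common over all genes and 0.231 for Fosl2. Over the 12 samples, centred within each group, the log2 CPM of Fos and Fosb had a Pearson r of 0.91. By the same measure the genes most like Fos among 10812 genes were Nedd4 (0.88), Erlec1, Dync1li2, Zc2hc1a and Per1 (0.86 each), and Fos and Myc had an r of -0.55. The genes most like Myc were Tgif2 (0.96), Amt (0.95), Dtnb (0.94), 2700062C07Rik (0.93) and Shisa8 (0.92). These values describe 12 points that share library preparation and tissue makeup, and they carry no test.

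**Figure D4:**
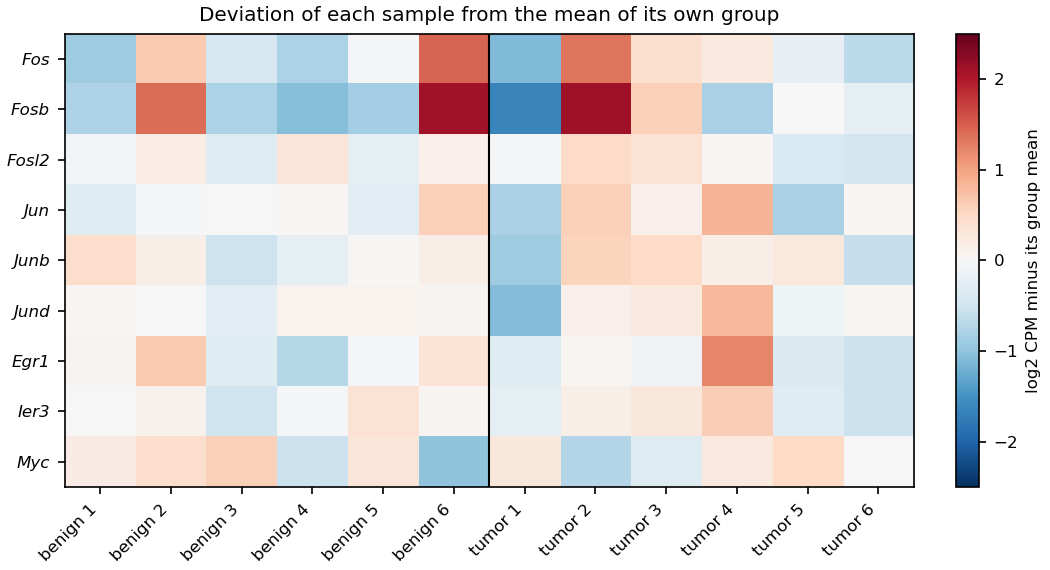
Deviation of each sample from the mean of its own group (color, log2 CPM) for the 9 tested genes (rows) in 6 benign samples and 6 tumors (columns, divided by the line). Fosb and Fos are high together in benign samples 2 and 6 and in tumor 2, and most genes are low in tumor 1.

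The genes around the members were grouped by role, and their counts are to be read against the 28.2% of all tested genes that were called higher and the 34.8% called lower. Of 36 tested immediate early genes other than the members, 7 were higher in tumors, 11 were lower and 18 were not called, with a median log2 fold change of -0.17. Trib1, a pseudokinase, rose by 2.99 (SE 0.20, edgeR adjusted p = 9.3e-08), and Phlda1 (2.21) and Cebpb (1.33) also rose. Klf2 (-3.19), Egr2 (-2.95) and Dusp1, a phosphatase that inactivates MAP kinases (-2.63), fell. These 6 genes were named by a rule that takes only called genes without overlap between tumors and benign samples. In the list as a whole, 3 of 36 genes had all tumors above all benign samples and 7 had all tumors below. Over all genes tested, these shares were 14.7% and 21.2%. The shares of immediate early genes called were below those of all tested genes in both directions.

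The AP-1 partner list held other leucine zipper proteins, some of which pair mainly with factors other than Fos and Jun. Among its 15 tested genes, 2 were higher and 5 lower (median -0.47). Atf7 rose by 1.35, whereas Maf (-3.16), Jdp2, a repressor of AP-1 (-1.19), and Nfe2l2 (-0.90) fell. Of 26 kinases and serum response factor components upstream, 6 were higher and 12 lower (median -0.29). Mapk13 (1.38), Mrtfb (1.08) and Mapk3, which encodes ERK1 (0.78), rose, and Rps6ka2 (-2.94), Elk3 (-1.09) and Mapk7 (-0.98) fell. Of 23 tested genes known as AP-1 targets, 6 were higher and 11 lower (median -0.76), and Areg, an EGF receptor ligand (-4.44), Gja1 (-2.78) and Plau (-2.77) had the largest falls without overlap among those with a mean of at least 10 CPM in benign tissue. Beside the 28.2% higher and 34.8% lower of all tested genes, AP-1 targets were called higher at a similar share and lower at a larger one (11 of 23). For 9 of the 23, all tumors lay below all benign samples, beside 21.2% of all genes tested. These shares were not tested against each other. The medians of all 7 lists lay below the -0.062 of all genes tested, the Myc network by the smallest margin.

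The Myc network, its partners and regulators, had 6 of 18 tested genes higher and 6 lower (median -0.063), near the 28.2% and 34.8% of all tested genes. Mlxip (0.82), Fbxw7, a ubiquitin ligase subunit that targets Myc (0.77), and Mxi1, a Myc antagonist (0.77), rose, and Mlxipl (-4.97) and Mycl (-2.45) fell. Of 40 genes known as Myc targets, 1 was higher, 15 were lower and 24 were not called (median -0.23). The share called lower was close to the 34.8% of all tested genes, whereas 1 of 40 higher lay below their 28.2%. Tfrc, the transferrin receptor, rose by 1.44, and Ccnd2 (-4.56), Hspe1 (-1.14) and Rrp12 (-1.11) fell. The count of lower Myc targets was 6 when libraries were scaled by total counts, and it was 6 without tumor 2, 6 without tumor 3, 7 without tumor 6, 8 without tumor 4 and 9 without benign sample 3. The count of higher Myc targets was 6 without benign sample 3. Of 12 heat shock genes, included as transcripts that respond to tissue handling, 2 were higher and 5 lower (median -0.27). Dnaja1, the 1 gene of this list without overlap between groups, fell by 0.63 on the log2 scale. The higher heat shock genes numbered 0 without benign samples 1, 3 or 5 or tumors 2 or 3, and 1 without benign sample 2 or tumor 6 (edgeR).

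**Figure D5:**
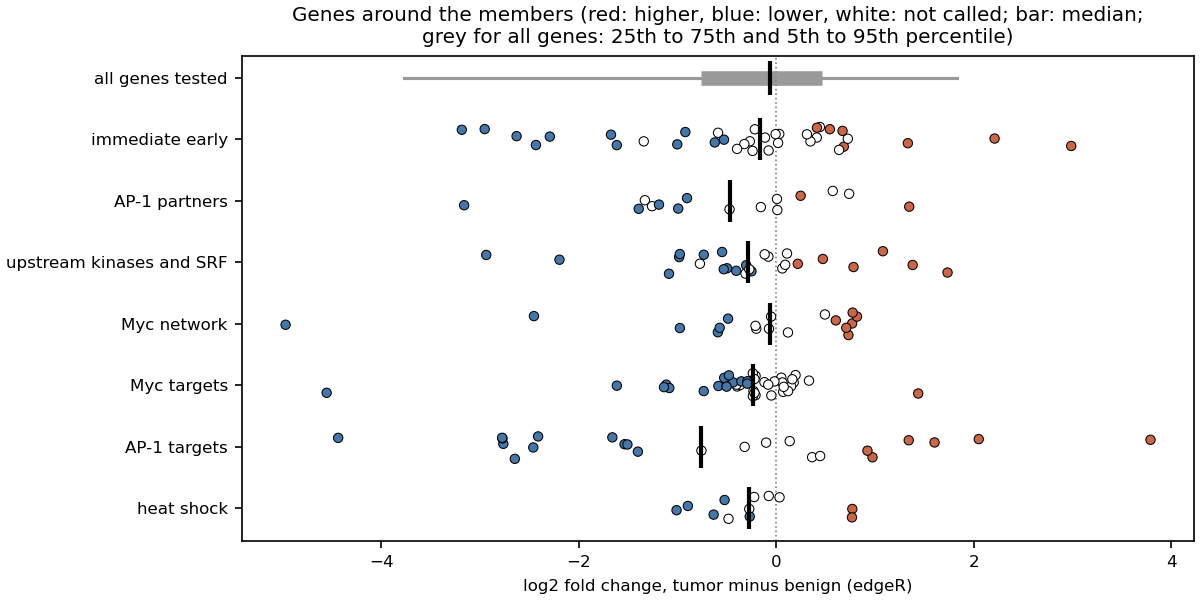
Log2 fold change between tumors and benign tissue (x axis, edgeR) for genes of 7 lists (points, red for higher, blue for lower, white for not called), with the median of each list as a black bar. The grey bar and line give the 25th to 75th and 5th to 95th percentiles of all 13191 genes tested, and every list holds genes on both sides of 0.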

How the data were processed

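RNA was measured in 6 tumors and 6 benign samples, grouped by their labels. The authors enriched poly A RNA, trimmed reads with Trim Galore and quantified transcripts with Salmon, and the deposited values are estimated counts of each gene, written as whole numbers and unscaled (build mm10 per the labels). The annotation and the Salmon version are not given in the sources used here. No column was without a sample (0 columns). Each sample was treated as a replicate, and all pairs within a group differed by more than sampling noise (chi-square per degree of freedom of at least 13).

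From the deposited counts, low genes were removed by filterByExpr (minimum count 10 and minimum total 15, by group). Libraries were scaled by TMM, and tumors were set against benign tissue with edgeR 4.0.16 (R 4.3.3), by its quasi-likelihood test (two-sided). P-values were adjusted by Benjamini-Hochberg over 13191 genes and read at a threshold of 0.1, as in the study. DESeq2 1.42.0 was an alternative. Log2 CPM used 2 added counts. Exact permutation tests (scipy 1.17.1) were two-sided over all regroupings of 6 against 6 samples, and their smallest p is 0.00216. The floor was 3 counts in a library, which covers counting error only.

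The members and gene lists were chosen with earlier results of these data known. Named genes of a list are the called genes without overlap between groups and with a mean of at least 10 CPM in the higher group, up to 3 with the largest rise and 3 with the largest fall. Genes most like Fos and Myc were taken by Pearson r of log2 CPM centred within groups, and none is given for Fosl1, which was not tested. Gene positions and transcript lengths came from GENCODE M21 on GRCm38. Other scalings, filters, thresholds, added counts, a replicate block and left-out samples were tried.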

Additional observations from a re-analysis of the deposited data

Results flagged for a closer look

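In 18 groups of 6 samples (9 members, benign tissue and tumors), 3 held a sample that stood apart from the others of its group by Dixon's test at the 95% level, which chance gives in about 1 of 20 groups. Jun in benign sample 6 had a log2 CPM of 7.77 (218 CPM). Jund in benign sample 3 was low, at a log2 CPM of 7.72 (211 CPM). Egr1 in tumor sample 4 was high, at a log2 CPM of 8.38 (332 CPM).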

How the results depend on the processing

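The calls of Ier3 and Fosb held under every alternative in which they were tested, and those of Fos and Junb did not. The count of members higher in tumors (2) was 4 with every gene of at least 1 count (Ier3, Junb, Fosl2 and Fosl1), and 1 with benign samples 3, 4 and 6 left out, with benign sample 1 left out as well, and at a threshold of 0.05, and 1 to 3 when each sample was left out. The count lower (2) was 1 when every sample had to reach 10 counts, which removes Fosb, 1 with both sets of benign samples left out and at 0.05, and 1 to 2 when each sample was left out. Higher Myc targets (1) numbered 2 by DESeq2, by total counts, with both other filters and without benign samples 1, 3, 4 and 6, 4 without benign samples 3, 4 and 6, and 1 to 6 when each sample was left out. Lower Myc targets (15) numbered 6 by total counts, 9 with at least 1 count, 9 at 0.05 and 6 to 16 when each sample was left out. Lower AP-1 targets (11) numbered 7 with at least 10 counts in every sample. Higher heat shock genes (2) numbered 0 without benign samples 1, 3, 4 and 6, 0 at 0.05 and 0 to 2 when each sample was left out, and lower ones (5) numbered 2 and 3 without the 3 and the 4 benign samples. The 6 passing family ratios became 0 without benign samples 3, 4 and 6, where 3 against 6 samples allow no exact p below 0.0238, and 2 to 7 when each sample was left out.

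Values near 0 changed sign, and their cause was not tested. Jun was 0.11 and 0.036 without the 3 and the 4 benign samples (-0.29 to 0.039 when each sample was left out). Jund was 0.041 by total counts, 0.040 with at least 1 count and 0.0094 with at least 10 counts in every sample (-0.18 to 0.17). Egr1 was 0.0017 by total counts and 0.013 with at least 1 count (-0.37 to 0.15). Myc was -0.0052 and -0.081 without the 3 and the 4 benign samples. The Jun to Jund ratio differed by 0.12 without the 3 (-0.21 to 0.020).

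Same-numbered samples did not deviate together (r from -0.124 to 0.103). This cannot tell whether the numbers pair the samples, since samples of the same mouse need not deviate together. The study states that its sequenced tumors and benign samples came from different mice. With the replicate number as a block, 1 member was higher (Ier3 4.88, edgeR adjusted p = 6.78e-06), and 9 Myc targets were lower. Junb was not called with this block (0.46, edgeR adjusted p = 0.234).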

Other observations

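Tumor 4, the highest tumor for Jun, Jund, Egr1 and Ier3, had the lowest Erbb2 level of the 6 tumors, at 1989 CPM. Tumor 3, with the highest Erbb2 level (16634 CPM), was not the highest or the lowest tumor for any of the 9 tested members. These values were picked out after they were seen and were not tested.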
